A study of Homo sapiens with 18 samples.

Results

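Total ribosome footprints of definitive endoderm (DE) were compared with those of the human pluripotent stem cells (hPSC) from which it was made, gene by gene over protein-coding genes. The 4 libraries were chosen as the footprint libraries made without a pull-down, 2 of DE and 2 of hPSC, out of 18 libraries in 9 groups. The DE group held endoderm differentiated from MEL1 INSGFP/W cells with the RPL22-FLAG genotype, and the hPSC group held the undifferentiated MEL1 INSGFP/W cells with the same genotype. MEL1 is an established human embryonic stem cell line, INSGFP/W is a reporter with GFP in the insulin gene, and RPL22-FLAG is a tagged protein of the large ribosomal subunit that both groups carry. The stem cells grew on Matrigel in mTeSR+ medium, and the labels give neither the day nor the factors of the endoderm step. All 4 libraries thus come from 1 line, and nothing in the labels says that the 2 libraries of a group were separate cultures, so p-values measure the spread between these libraries, which may be technical. RNA-seq (2 DE and 2 hPSC libraries) and footprints selected through the FLAG tag (2 DE and 2 hPSC libraries) are set beside the total footprints where they bear on a gene.

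Definitive endoderm is the germ layer that gives rise to the gut, liver and pancreas, and it leaves the pluripotent state under Nodal or activin signalling, which acts through SMAD2 and SMAD3 with partners such as FOXH1 and EOMES. GATA, SOX17 and FOXA factors then set the endoderm programme while POU5F1, SOX2 and NANOG decline. Ribosome profiling sequences the stretches of mRNA that ribosomes shield from a nuclease. A footprint count therefore reflects both how much mRNA a gene has and how densely ribosomes sit on it, and in bulk cultures fewer cells of a kind and less RNA per cell cannot be told apart.

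The table held 57808 genes, of which 19196 were protein-coding. Among these, 16962 had at least 1 count in the 4 libraries and 12697 passed the filter on low counts and were tested. DE libraries 1 and 2 held 30167746 and 24257185 counts, and hPSC libraries 1 and 2 held 22289407 and 26399618. DE library 1 stood apart: 40.6% of its counts fell on protein-coding genes, against 76.1% in DE library 2 and 80.4% and 81.9% in the hPSC libraries. One unnamed feature took 25.1% of DE library 1, and 4.51%, 1.28% and 2.04% of DE library 2 and of hPSC libraries 1 and 2. LINC01783, which is not protein-coding and whose span holds TRE-TTC4-1, took 16.3% of DE library 1. It took 0.505%, 0.192% and 0.186% of DE library 2 and of hPSC libraries 1 and 2. WDR74, a coding gene on chromosome 11 whose annotated span holds the U2 small nuclear RNA gene RNU2-2, took 10.4% of DE library 1 and 2.3%, 0.597% and 0.508% of those same 3 libraries. Levels below are TMM-normalised counts per 1000000 counts (CPM), a scaling set on the bulk of genes, with TMM factors of 0.526 and 1.414 in DE and 1.179 and 1.14 in hPSC. The Spearman correlation over coding genes was 0.972 between the DE libraries and 0.99 between the hPSC libraries. Of 4512 coding genes with a mean log2 CPM of 4 or more, 19 lay 4-fold or more apart between the DE libraries and 2 between the hPSC libraries. Some of these genes were high in DE library 1 alone, such as ERICH3 with 710 and 1.46 CPM in DE and 1.37 and 3.76 CPM in hPSC.

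Footprints of 4627 of the 12697 coding genes (36.4%) differed past the threshold, an adjusted p under 0.05 in edgeR's quasi-likelihood test with Benjamini-Hochberg adjustment over all genes. Of these, 2307 (18.2%) were higher and 2320 (18.3%) lower in DE, and the median log2 fold change over all tested coding genes was 0.02. The change was 4-fold or more for 829 of the higher and 516 of the lower genes, and 32-fold or more for 80 higher and 24 lower genes that had more than 3 counts in each group. Both DE libraries lay above both hPSC libraries for 4839 genes (38.1%) and below both for 4816 genes (37.9%). The counts depend on the hPSC libraries: 113 higher and 46 lower genes passed without hPSC library 1 and 44 and 17 without hPSC library 2. In these fits the lone hPSC library is assumed to vary like the DE pair. Without DE library 1, 2144 genes were higher and 2124 lower. Tested against a change of 2-fold rather than none, 778 genes (6.13%) were higher and 456 (3.59%) lower. Of 183 named genes past the threshold, 176 kept their call without DE library 1, 169 without DE library 2, 37 without hPSC library 1 and 22 without hPSC library 2, and none turned its direction. The 22 that kept it with each library left out in turn include CXCR4, EOMES, FN1, GATA6, GSC, LEFTY2, NANOG and POU5F1.

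**Figure D1:**
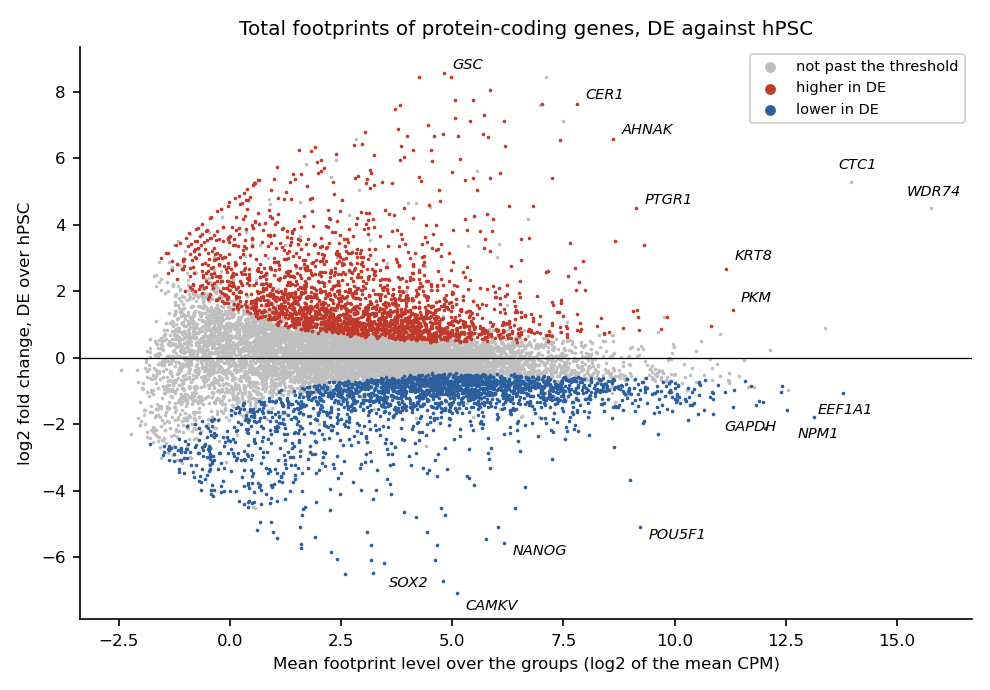
Footprint log2 fold change (DE over hPSC, y axis) against the mean footprint level (log2 of the mean CPM, x axis) for 12489 protein-coding genes, 1 point a gene, coloured by call; 208 genes with 3 or fewer counts in a group are left out. Endoderm genes such as GSC and CER1 lie at the top, POU5F1, SOX2 and NANOG at the bottom, and abundant genes such as NPM1 and GAPDH on the lower right, while WDR74 and CTC1 are high in level without passing the threshold.

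The libraries carried the markers their labels call for. The 9 markers of definitive endoderm summed to 809 and 1116 CPM in the DE libraries, against 7.77 and 5.55 CPM in the hPSC libraries. All 9 were called higher, beside 18.2% of all coding genes. The 8 markers of pluripotent cells summed to 323 and 324 CPM in DE and to 2745 and 2489 CPM in hPSC. Of these 8 markers 7 were called lower, beside 18.3% of all coding genes. The exception was TDGF1, the co-receptor of Nodal that serves as a marker of both states, with 149 and 138 CPM in DE and 73.5 and 98.2 CPM in hPSC. It rose by a log2 fold change of 0.74 ± 0.19 (SE, adjusted p = 0.0364), and the call was lost without DE library 1.

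All 17 tested endoderm transcription factors, of 18 listed, were called higher, beside 18.2% of all coding genes, with a median log2 fold change of 6.25. SOX7 was not tested. GATA6, a zinc-finger factor needed for endoderm, had 94 and 134 CPM in the DE libraries and 0.533 and 0.333 CPM in the hPSC libraries. The groups lay far apart, and GATA6 rose by 8.04 ± 0.36 on the log2 scale (adjusted p = 0.000734). GSC, a homeobox repressor of the organizer and early endoderm, had 46.2 and 65.4 CPM in DE and 0.267 and 0.0333 CPM in hPSC, a rise of 8.56 ± 0.70 (adjusted p = 0.00479). SOX17, the HMG-box factor that defines this germ layer, had 51.2 and 81.5 CPM in DE and 0.495 and 0.133 CPM in hPSC, a rise of 7.74 ± 0.67 (adjusted p = 0.00544). EOMES, a T-box activator upstream of the endoderm programme, had 95.2 and 114 CPM in DE and 0.381 and 0.931 CPM in hPSC.

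The factors of later gut and liver that are first made in endoderm were also present in both DE libraries. HNF4A, a nuclear receptor of liver and gut, had 23.7 and 30.4 CPM in DE and 0.0381 and 0.399 CPM in hPSC, and rose by 6.87 ± 0.77 on the log2 scale. HHEX, a homeobox factor of anterior endoderm, had 28.3 and 28.4 CPM in DE and 0.457 and 0.233 CPM in hPSC. The 3 FOXA genes, pioneer factors of gut tissues, differed in size of change: FOXA2 rose by 4.50 ± 0.28, FOXA1 by 3.70 ± 0.66 and FOXA3 by 1.51 ± 0.21. FOXA3, the tested factor with the smallest change, had 8.14 and 8.56 CPM in DE and 3.12 and 2.73 CPM in hPSC.

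**Figure D2:**
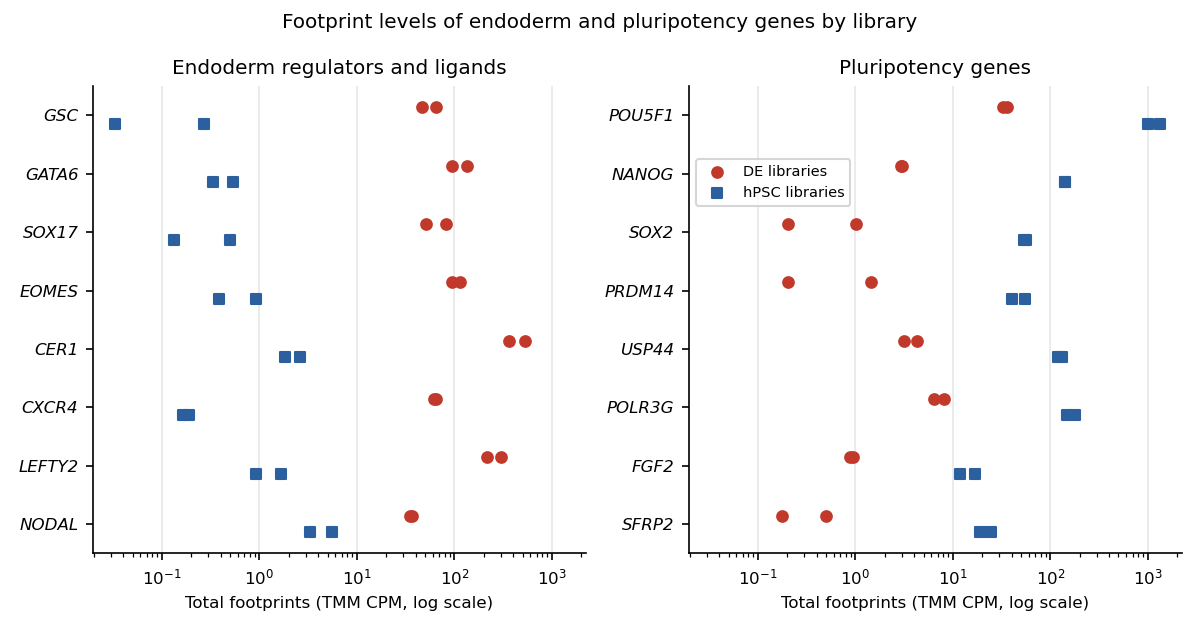
TMM-normalised footprint CPM on a log axis for 8 endoderm genes (left) and 8 pluripotency genes (right), with each of the 2 DE libraries as a red circle and each of the 2 hPSC libraries as a blue square. The groups do not overlap for any of the 16 genes: GATA6 had 94 and 134 CPM in DE and 0.533 and 0.333 CPM in hPSC, and POU5F1 had 32.6 and 36.1 CPM in DE and 1320 and 1012 CPM in hPSC.

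Of 17 tested endoderm surface and secreted proteins, 15 rose and none fell, beside 18.2% and 18.3% of all coding genes. Their median log2 fold change was 3.87. CXCR4, the chemokine receptor used to sort endoderm, had 61.2 and 64.5 CPM in DE and 0.19 and 0.166 CPM in hPSC, and rose by 8.43 ± 0.21 (adjusted p = 0.00056). CER1, a secreted antagonist of Nodal, BMP and WNT, had 363 and 526 CPM in DE and 2.63 and 1.83 CPM in hPSC, and rose by 7.64 ± 0.36 (adjusted p = 0.00076). EPSTI1, a member of the list whose place at the surface or outside the cell was not checked, had 102 and 104 CPM in DE and 0.876 and 1.06 CPM in hPSC. FGF17, a growth factor, had 26.2 and 50 CPM in DE and 0.0381 and 0.166 CPM in hPSC. Its call was lost without either hPSC library, a loss shared by most named genes past the threshold, also where it is not stated. The 2 tested members without a call were FGF8, with 1.39 and 1.69 CPM in DE and 1.14 and 0.732 CPM in hPSC, and the WNT antagonist DKK1, with 0.757 and 0.584 CPM in DE and 0.267 and 0.166 CPM in hPSC.

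FOXH1, the partner through which SMADs reach many Nodal targets, recognises TGTNNATT, and this motif was looked for on both strands in the 250 bases before the RefSeq start (GRCh38.p14), since the endoderm genes moved together. It was present in 503 of 10382 such windows of tested coding genes (4.84%), in 4 of 11 of endoderm transcription factors (KLF5, MIXL1, OTX2, PRDM1), in 1 of 13 of endoderm surface and secreted proteins (CER1) and in 0 of 26 of Nodal, activin and BMP signalling genes. The windows of CER1 (chr9:14722734-14722983, minus strand) and MIXL1 (chr1:226223414-226223663, plus strand) are shown with the motif in capitals.
CER1: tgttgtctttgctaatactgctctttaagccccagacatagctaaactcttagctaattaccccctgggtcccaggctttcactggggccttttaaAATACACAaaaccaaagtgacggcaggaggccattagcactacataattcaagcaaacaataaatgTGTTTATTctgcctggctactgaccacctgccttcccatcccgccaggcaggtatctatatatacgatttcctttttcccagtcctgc
MIXL1: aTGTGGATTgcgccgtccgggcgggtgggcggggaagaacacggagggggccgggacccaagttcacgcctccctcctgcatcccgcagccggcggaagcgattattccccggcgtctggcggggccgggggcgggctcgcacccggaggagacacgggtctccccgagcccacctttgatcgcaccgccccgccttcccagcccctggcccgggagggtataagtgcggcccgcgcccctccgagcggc
CER1 held 2 matches, 1 on each strand, which end 146 and 80 bases before the window's end, and MIXL1 held 1 match at the far end of its window. MIXL1, a homeobox factor of mesendoderm, had 36.5 and 39.8 CPM in DE and 1.18 and 0.732 CPM in hPSC, a rise of 5.32 ± 0.28 on the log2 scale. These matches describe letters and no binding was measured.

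Signalling genes of the Nodal, activin and BMP pathways were called higher for 16 of 30 tested members and lower for 1, beside 18.2% and 18.3% of all coding genes. Their median log2 fold change was 1.0. NODAL itself, the ligand, had 36.5 and 35.1 CPM in DE and 5.52 and 3.29 CPM in hPSC, and rose by 3.02 ± 0.28 (adjusted p = 0.00292). Its feedback inhibitors also rose. LEFTY2 had 217 and 300.2 CPM in DE and 1.68 and 0.931 CPM in hPSC, and LEFTY1 had 103 and 187 CPM in DE and 2.13 and 1.36 CPM in hPSC. LEFTY1 and LEFTY2 are close copies whose reads the counting may have split. BMP2, a ligand of the BMP branch, had 14.3 and 13.1 CPM in DE and 0.229 and 0.399 CPM in hPSC, and SMAD6, an inhibitor of that branch, had 10.5 and 12.5 CPM in DE and 1.07 and 0.865 CPM in hPSC. SKIL, a repressor of SMAD targets, was the member that fell, by 0.63 on the log2 scale (SE 0.15, adjusted p = 0.0297), and this call was lost without DE library 2. The common mediator SMAD4 had 57.5 and 52.3 CPM in DE and 47.4 and 54.4 CPM in hPSC, so the libraries of the groups interleaved.

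WNT signalling genes were called higher for 6 of 20 tested members and lower for 1, beside 18.2% and 18.3% of all coding genes. The fit of protein-coding genes alone called 10 of 21 higher, and the fit without DE library 2 called 3 lower. In the list, 8 of 28 listed genes, 5 of them WNT ligands, were too low to test. LGR5, a receptor of R-spondins and a WNT target, had 7.13 and 8.15 CPM in DE and 0.114 and 0.133 CPM in hPSC. FZD5, a WNT receptor, had 92.4 and 60.7 CPM in DE and 1.75 and 2 CPM in hPSC, and rose by 5.35 ± 0.29 (adjusted p = 0.000848). SP5, a target gene of β-catenin, had 3.09 and 4.24 CPM in DE and 0.19 and 0.2 CPM in hPSC. TCF7L1, a repressor of WNT targets in stem cells, had 11 CPM in each DE library and 19 and 17.4 CPM in the hPSC libraries, and fell by 0.73 on the log2 scale (SE 0.16). CTNNB1, which encodes β-catenin, had 1283 and 970.1 CPM in DE and 865 and 918 CPM in hPSC, with an adjusted p of 0.268.

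In the FGF and ERK list, 8 of 19 tested members were higher and 5 lower, beside 18.2% and 18.3% of all coding genes. FGF2, a growth factor of the pluripotent state, had 0.883 and 0.935 CPM in DE and 11.9 and 17 CPM in hPSC, and fell by 3.98 on the log2 scale (SE 0.28). ETV1, an ETS factor downstream of ERK, had 2.21 and 2.25 CPM in DE and 49.4 and 52.8 CPM in hPSC. DUSP4, a phosphatase that inactivates ERK, moved the other way, with 75.9 and 65.7 CPM in DE and 1.56 and 0.698 CPM in hPSC. EGR1, an early target of ERK, had 5.05 and 5.99 CPM in DE and 0.229 and 0.399 CPM in hPSC.

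Of 20 pluripotency factors, 15 fell and 3 rose, beside 18.3% of all coding genes lower, and the median log2 fold change was -1.95. POU5F1 (OCT4), the central POU factor, had 32.6 and 36.1 CPM in the DE libraries and 1320 and 1012 CPM in the hPSC libraries. It fell by 5.08 on the log2 scale (SE 0.25, adjusted p = 0.000767). NANOG had 2.97 and 2.98 CPM in DE and 140.5 and 140.4 CPM in hPSC, and fell by 5.56 (SE 0.17, adjusted p = 0.000573). The retrogene NANOGP8, nearly identical to NANOG, gave 2.97 and 1.99 CPM in DE and 88.6 and 123 CPM in hPSC, and the counting may have divided reads between the copies. SOX2, the HMG-box partner of OCT4, had 1.01 and 0.205 CPM in DE and 56.7 and 53.3 CPM in hPSC, and fell by 6.71 (SE 0.76, adjusted p = 0.0109). PRDM14, a repressor of differentiation genes, fell by 6.07 (SE 1.02), with 1.45 and 0.205 CPM in DE and 40.9 and 54.7 CPM in hPSC. For SOX2 and PRDM14 the level in DE library 1 was several times that in DE library 2. Both calls, like those of most named genes, were lost without either hPSC library.

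FOXD3, a forkhead factor of pluripotent cells, had 0 counts in both DE libraries and 4.04 and 3.59 CPM in hPSC. Taking 3 counts in the 2 DE libraries together as the floor, it was at least 63.4-fold lower, and the list median stayed at -1.95 with FOXD3 at this bound. UTF1, a chromatin protein of pluripotent cells, had 0.126 and 0 CPM in DE and 9.14 and 9.61 CPM in hPSC. Among the 3 factors that rose were SALL4, a zinc-finger factor, with 138 and 178 CPM in DE and 96.3 and 93.4 CPM in hPSC, and ZIC2, with 25.7 and 30.8 CPM in DE and 19.3 and 17.9 CPM in hPSC. SALL4 and ZIC2 lost their calls without DE library 2.

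Of 20 further genes of the pluripotent state, 13 fell and 2 rose, beside 18.3% and 18.2% of all coding genes. USP44, a deubiquitinase of stem cells, had 4.29 and 3.16 CPM in DE and 120.2 and 131 CPM in hPSC, and POLR3G, a stem-cell subunit of RNA polymerase III, had 8.08 and 6.34 CPM in DE and 149 and 177 CPM in hPSC. SFRP2, a secreted WNT modulator, had 0.505 and 0.175 CPM in DE and 24.6 and 19.1 CPM in hPSC. PODXL, the sialomucin that carries the TRA-1 epitopes, rose, with 45.5 and 49.1 CPM in DE and 18.1 and 14.6 CPM in hPSC. LIN28A, an RNA-binding repressor of let-7, did not pass, with 285 and 203 CPM in DE and 310.4 and 275 CPM in hPSC and an adjusted p of 0.394.

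Short sets of markers of other lineages were low in both groups, and few of their members could be tested. The 8 mesoderm markers summed to 5.55 and 5.35 CPM in DE and 9.14 and 11.1 CPM in hPSC, with MSGN1 at 0 in all 4 libraries. The defining mesoderm factor TBXT had 0.0631 and 0.175 CPM in DE and 0.267 and 0.133 CPM in hPSC. The 7 neural and ectoderm markers summed to 15.5 and 14.6 CPM in DE and 22 and 12 CPM in hPSC, the 6 trophoblast and amnion markers to 6.88 and 7.57 CPM in DE and 6.67 and 6.29 CPM in hPSC, and the 5 blood and endothelium markers to 1.2 and 0.935 CPM in DE and 1.33 and 1.26 CPM in hPSC. The 7 markers of later gut, liver and pancreas summed to 1.83 and 1.58 CPM in DE and 1.52 and 1.96 CPM in hPSC, with ALB, PTF1A and INS at 0 in every library. The part of other cells in the footprint changes was not tested beyond these levels.

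Single genes of the longer lineage lists did change. Summed over its genes, the mesoderm list had 171 and 188 CPM in DE and 12 and 13.8 CPM in hPSC. The neural list had 63.3 and 79.5 CPM in DE and 374 and 313 CPM in hPSC. The later gut, liver and pancreas list had 81.5 and 129 CPM in DE and 38.2 and 30.8 CPM in hPSC. The trophoblast and amnion list had 24.1 and 28.7 CPM in DE and 19.7 and 17.3 CPM in hPSC. The blood, endothelial and immune list had 3.41 and 2.66 CPM in DE and 5.45 and 5.02 CPM in hPSC. Within the mesoderm list, CYP26A1, an enzyme that breaks down retinoic acid, had 137 and 147 CPM in DE and 0.8 and 1.23 CPM in hPSC, and TBX20, a T-box factor of heart, had 24.5 and 32.2 CPM in DE and 0.19 and 0.0998 CPM in hPSC. PAX6, a paired-box factor of the neural plate, eye and pancreas, had 8.58 and 9.26 CPM in DE and 0.571 and 0.399 CPM in hPSC. GATA3, a factor of trophoblast and amnion among other tissues, had 6.37 and 7.16 CPM in DE and 0.152 and 0.333 CPM in hPSC. In the neural list 6 of 10 tested genes fell and 2 rose, beside 18.3% and 18.2% of all coding genes. CAMKV fell the most, with 0.883 and 0.263 CPM in DE and 70.8 and 66.3 CPM in hPSC. AFP, a fetal serum protein of liver and yolk sac, had 0 counts in both DE libraries and 1.22 and 1.73 CPM in hPSC, which makes it at least 24.9-fold lower in DE.

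**Figure D3:**
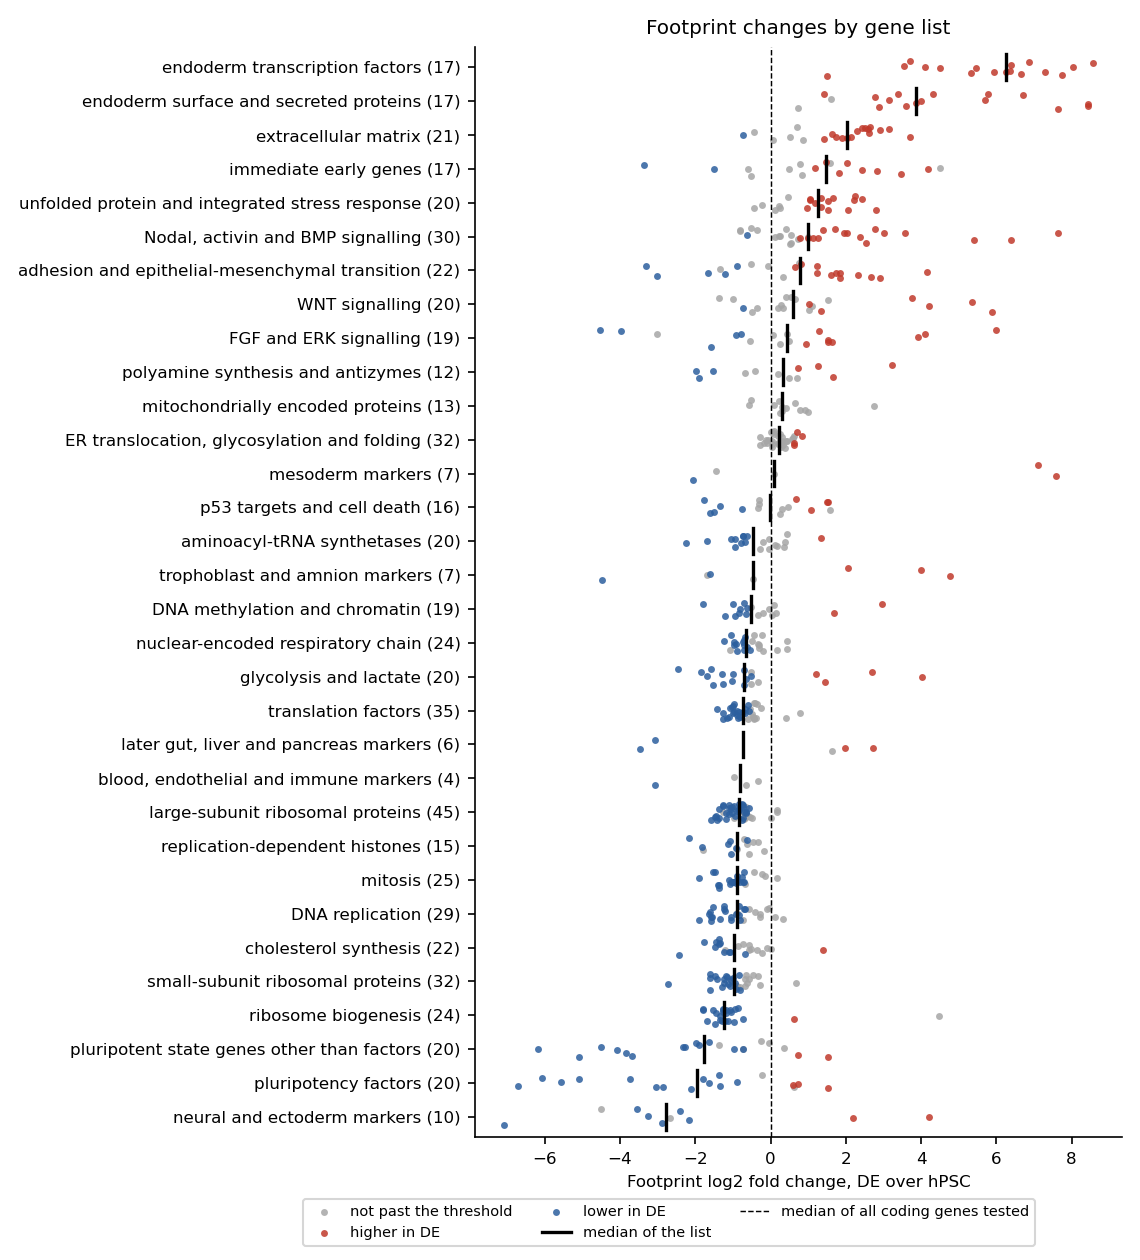
Footprint log2 fold change (DE over hPSC, x axis) of the tested members of 32 gene lists, 1 point a gene, with the number tested in brackets, a black bar for the list's median over all tested members and a dashed line for the median of all coding genes (0.02). The named list members with 3 or fewer counts in a group (FOXD3, UTF1, FOXC1, CDH11, AFP and DNMT3L) are not drawn. Endoderm lists have medians of 6.25 and 3.87, ribosomal protein lists of -0.97 and -0.85, and the ER list of 0.22.

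Adhesion and epithelial genes rose for 12 of 22 tested members and fell for 5, beside 18.2% and 18.3% of all coding genes. The fibronectin gene FN1, a matrix protein on which endoderm migrates in the embryo, had 114 and 115 CPM in DE and 7.43 and 5.26 CPM in hPSC, and rose by 4.17 ± 0.23 (adjusted p = 0.000857). ITGA5, the α subunit of the fibronectin receptor, had 7.45 and 7.51 CPM in DE and 1.18 and 0.798 CPM in hPSC, while ITGA6, the α subunit of a laminin receptor, had 6.56 and 5.32 CPM in DE and 14.4 and 13.2 CPM in hPSC. KRT8, an intermediate filament of simple epithelia, had 4444 and 3458 CPM in DE and 659 and 577 CPM in hPSC. CDH1, which encodes E-cadherin, fell by 1.66 on the log2 scale (SE 0.30), with 3.53 and 5.81 CPM in DE and 16.8 and 13 CPM in hPSC. ZEB2 and ZEB1, which can repress CDH1, fell by 3.30 (SE 0.56) and 3.03 (SE 0.64), while SNAI2 and TWIST1 of the same list were too low to test.

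Extracellular matrix genes rose for 15 of 21 tested members and fell for 1, beside 18.2% and 18.3% of all coding genes, with a median log2 fold change of 2.02. The basement membrane collagens COL4A1 and COL4A2 rose by 3.71 ± 0.27 and 3.15 ± 0.29. COL4A1 had 22.3 and 31.2 CPM in DE and 2.32 and 1.76 CPM in hPSC. The laminin chains parted: LAMB1 had 32.2 and 33.9 CPM in DE and 4.91 and 5.59 CPM in hPSC, and LAMC1 had 5.87 and 5.43 CPM in DE and 9.6 and 9.21 CPM in hPSC, a fall of 0.74 on the log2 scale (SE 0.18) that was lost without DE library 2.

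Among the 10 largest rises and 10 largest falls on the log2 scale, several genes stood in none of the lists. ANKRD1, an ankyrin-repeat protein of muscle and a target gene of YAP, had 105 and 72.3 CPM in DE and 0.343 and 0.466 CPM in hPSC, and rose by 7.75 ± 0.33 (adjusted p = 0.000658). DNAJC15, a co-chaperone of mitochondrial import, had 20.9 and 13.3 CPM in DE and only 3 counts over both hPSC libraries, so its place in this ranking rests on a fold change that the depth does not fix. CNMD, which encodes the cartilage protein chondromodulin, had 0.252 and 0.175 CPM in DE and 18.6 and 18.2 CPM in hPSC, and fell by 6.47 on the log2 scale (SE 0.27). VSNL1, a neuronal calcium sensor, had 1.07 and 0.935 CPM in DE and 48.3 and 50.1 CPM in hPSC, and GNA14, a G protein α subunit, had 0.631 and 0.175 CPM in DE and 16.2 and 19.2 CPM in hPSC. The rule picked these 5 genes for large changes without overlap, so the distance between their groups is no separate support. The calls of ANKRD1, CNMD and VSNL1 held with each library left out in turn.

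By the rule of the largest gains and losses in mean CPM, which weighs genes by their share of all footprints and so favours long and abundant coding sequences, the 8 gains among genes past the threshold were KRT8, PKM, ACTG1, ANXA2, PTGR1, AHNAK, RGPD8 and NUDT4. AHNAK, a very large scaffold protein, had 707 and 848 CPM in DE and 7.39 and 8.78 CPM in hPSC. ANXA2, a membrane-binding annexin, had 1107 and 1199 CPM in DE and 98.9 and 123 CPM in hPSC, and PTGR1, a reductase of prostaglandins and leukotrienes, had 1095 and 1047 CPM in DE and 46.4 and 48.9 CPM in hPSC. RGPD8 belongs to a family of close copies and NUDT4 has the near-identical copy NUDT4B, so their values are uncertain. WDR74, CTC1 and TMC5 had larger differences in mean CPM but did not pass the threshold. The 8 losses among genes past it were EEF1A1, NPM1, GAPDH, PTMA, SUMO2, HSP90AB1, HSPD1 and SET. NPM1, a nucleolar chaperone, had 4426 and 3626 CPM in DE and 11490 and 16369 CPM in hPSC, and fell by 1.79 on the log2 scale (SE 0.29, adjusted p = 0.0103). PTMA, a small acidic chromatin protein, had 1337 and 1844 CPM in DE and 7066 and 6569 CPM in hPSC, and HSP90AB1, a cytosolic chaperone, had 2488 and 2166 CPM in DE and 5777 and 5857 CPM in hPSC.

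Footprints of most genes of the translation apparatus were lower in DE. The 32 ribosomal proteins of the small subunit summed to 24190 and 20793 CPM in DE and 41316 and 43232 CPM in hPSC, and the 45 of the large subunit to 29515 and 29081 CPM in DE and 54622 and 56029 CPM in hPSC. Of the small-subunit genes 19 fell and none rose, beside 18.3% and 18.2% of all coding genes, with a median log2 fold change of -0.97. Of the large-subunit genes 32 fell and none rose, beside the same 18.3% and 18.2% of all coding genes, with a median of -0.85. Without DE library 1 these counts were 23 and 30, and many ribosomal protein genes have processed pseudogenes with which reads can be shared. RPS26 fell most among the small-subunit genes, with 6.25 and 8.79 CPM in DE and 38 and 61.5 CPM in hPSC (log2 fold change -2.72 ± 0.32). RPL14 had 195 and 236 CPM in DE and 578 and 609 CPM in hPSC (-1.46 ± 0.19), and RPL34 had 742 and 672 CPM in DE and 1635 and 2173 CPM in hPSC (-1.43 ± 0.23). RPL22, whose protein carries the tag, had 974 and 1230 CPM in DE and 1993 and 1745 CPM in hPSC, and fell by 0.76 (SE 0.22, adjusted p = 0.0456), a call lost without DE library 1. Reads of a tagged and an untagged copy of RPL22 cannot be told apart in this count.

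Ribosomal protein mRNAs are known for a 5′ terminal oligopyrimidine tract, a C at the start followed by a run of C or T, through which growth signalling by mTOR controls their translation. In the RefSeq starts (GRCh38.p14) a C followed by at least 4 C or T stood at the start of 41 of 61 ribosomal protein genes, 9 of 27 translation factors, 2 of 19 ribosome biogenesis genes, 0 of 11 endoderm transcription factors and 574 of 10382 tested coding genes (5.53%). Start windows of 15 bases before and 15 from the annotated start are shown for 2 ribosomal protein genes and 1 initiation factor with such a start and for the lowered RPS26 without, with the run in capitals.
RPL14: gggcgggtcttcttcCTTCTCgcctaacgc
RPL34: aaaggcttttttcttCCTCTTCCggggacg
EIF4A2: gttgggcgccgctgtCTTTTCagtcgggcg
RPS26: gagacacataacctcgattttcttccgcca
They lie at chr3:40457324-40457353, chr4:108620561-108620590, chr3:186783562-186783591 and chr12:56041903-56041932, all on the plus strand. A RefSeq start can differ from the start used in these cells, and listed genes without a start in the reference are left out of these counts. The median total footprint change was -0.88 for the 41 ribosomal protein genes with such a start and -0.75 for the 20 without, of which 27 and 11 were called lower. In FLAG-selected footprints the order was the reverse, with medians of -0.81 with such a start and -0.98 without. In RNA both medians were -0.25. The median total footprint change was -0.11 for 524 other genes with such a start, where 106 (20.2%) were lower, beside 18.3% of all genes with a start.

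Of 35 translation factors 21 fell, beside 18.3% of all coding genes, and none rose, with a median log2 fold change of -0.72. EEF1A1, the elongation factor that brings aminoacyl-tRNA to the ribosome, had 10554 and 7568 CPM in DE and 16247 and 21864 CPM in hPSC, a fall of 1.07 (SE 0.30, adjusted p = 0.0446) that was lost without DE library 2. EEF1B2, a subunit of its exchange factor, had 650 and 801 CPM in DE and 1740 and 2153 CPM in hPSC. EIF4A2, an initiation helicase whose span holds several small nucleolar RNA genes, had 1307 and 689 CPM in DE and 572 and 579 CPM in hPSC. Its log2 fold change was 0.79 ± 0.33 in the fit of all 4 libraries (adjusted p = 0.123). It was 0.26 without DE library 1 and 1.18 without DE library 2. For this gene FLAG-selected footprints changed by -0.03 ± 0.25 and RNA by -0.24 ± 0.05. Among 20 aminoacyl-tRNA synthetases 10 fell and 1 rose, beside 18.3% and 18.2% of all coding genes. EPRS1, which charges glutamate and proline tRNAs, had 52.8 and 54 CPM in DE and 231 and 272 CPM in hPSC. WARS1, the tryptophan enzyme, rose, with 166 and 144 CPM in DE and 58.7 and 64.9 CPM in hPSC.

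Ribosome biogenesis genes fell for 22 of 24 tested members and rose for 1, beside 18.3% and 18.2% of all coding genes, with a median log2 fold change of -1.23. NCL, the nucleolar protein nucleolin, had 845 and 939.8 CPM in DE and 2728 and 2977 CPM in hPSC (-1.68 ± 0.20), and NOP16 had 10.3 and 12.3 CPM in DE and 43.2 and 35.8 CPM in hPSC. RRP9, a component of the U3 particle, rose by 0.63 ± 0.14. The member without a call in the fit of all 4 libraries was WDR74, with 198129 and 16327 CPM in DE and 5067 and 4462 CPM in hPSC. It was called higher without DE library 1 (log2 fold change 1.78, adjusted p = 0.00445), without DE library 2 (5.38, adjusted p = 0.000522) and by DESeq2 (adjusted p = 0.00133). Its RNA fell by 1.02 on the log2 scale, and footprints of its coding sequence and reads of RNU2-2 cannot be told apart in this count.

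**Figure D4:**
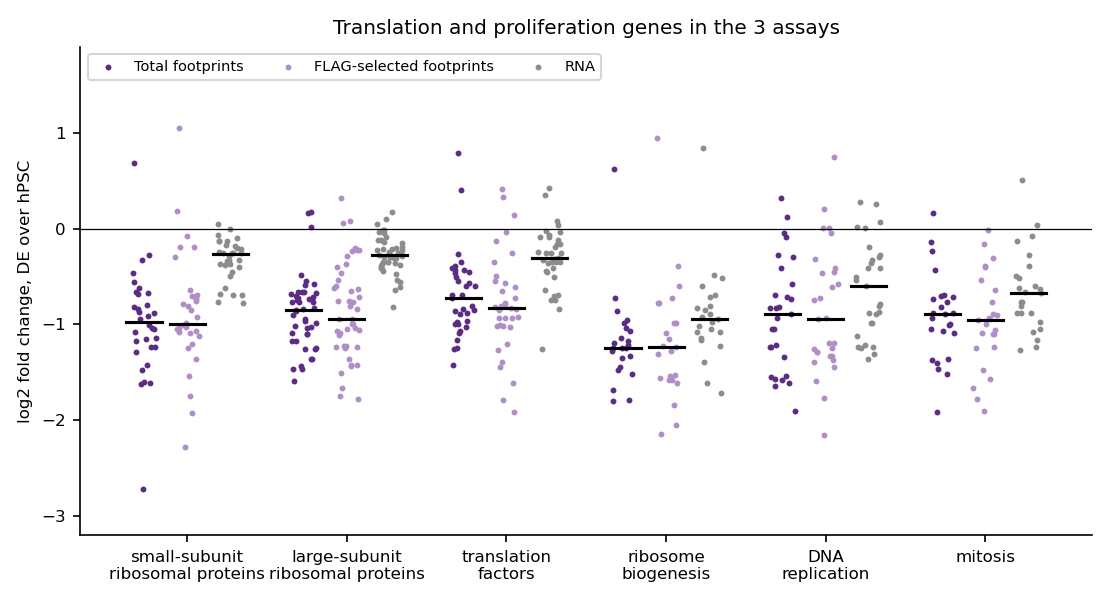
Log2 fold change (DE over hPSC, y axis) of genes of 6 lists in total footprints, FLAG-selected footprints and RNA, 1 point a gene, with black bars for medians; WDR74 is not drawn. In ribosomal protein lists both footprint kinds have medians between -0.85 and -0.99 and RNA has medians of -0.27.

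Many proliferation genes were lower in DE. DNA replication genes were lower for 19 of 29 members and higher for none, with a median of -0.89. Mitosis genes were lower for 19 of 25 and higher for none, also with a median of -0.89. Of all coding genes 18.3% were lower. MCM2, a subunit of the replicative helicase, had 33.1 and 42.6 CPM in DE and 150.4 and 132 CPM in hPSC (-1.90 ± 0.19), while its partner MCM6 had 213 and 210.2 CPM in DE and 245 and 264 CPM in hPSC without a call. CENPF, a kinetochore protein, had 79.1 and 85.6 CPM in DE and 315 and 305 CPM in hPSC, while CDK1, the mitotic kinase, had 101 and 114 CPM in DE and 109 and 127 CPM in hPSC with an adjusted p of 0.559. MKI67, the widely used proliferation marker, had 70.7 and 89.4 CPM in DE and 103 and 85.2 CPM in hPSC, and the groups overlapped. Of 15 replication-dependent histones 7 fell, beside 18.3% of all coding genes, and 11 were lower by DESeq2. Their median log2 fold change was -0.88, and it was -0.60 without DE library 1 and -1.18 without DE library 2. In FLAG-selected footprints 2 of the 15 were lower, beside 12.2% of all coding genes, with a median of -0.28. H1-3, a linker histone, had 50.1 and 70.8 CPM in DE and 246 and 180.1 CPM in hPSC, and close copies share reads in this family.

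Glycolysis genes were lower for 13 of 20 members and higher for 4, beside 18.3% and 18.2% of all coding genes. GAPDH had 2565 and 3336 CPM in DE and 9546 and 8144 CPM in hPSC, a fall of 1.58 on the log2 scale (SE 0.25), and LDHB, a lactate dehydrogenase subunit, had 704 and 691 CPM in DE and 1992 and 2526 CPM in hPSC. Against them, PKM, the pyruvate kinase gene, had 3062 and 4320 CPM in DE and 1392 and 1328 CPM in hPSC, and SLC2A3, a glucose transporter, had 363 and 393 CPM in DE and 60.4 and 55.5 CPM in hPSC. Cholesterol synthesis genes fell for 11 of 22 members and rose for 1, beside 18.3% and 18.2% of all coding genes. FDFT1, which makes squalene, stood at 48.5 and 67.3 CPM in DE and 308 and 316 CPM in hPSC. Nuclear-encoded respiratory chain genes fell for 13 of 24 members, beside 18.3% of all coding genes. None of the 13 mitochondrially encoded genes passed the threshold. The median log2 fold change of these 13 was 0.31, and it was 0.12 without DE library 1 and 0.59 without DE library 2.

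Of 32 genes of ER translocation, glycosylation and folding, 4 were higher, beside 18.2% of all coding genes, and none lower. Without DE library 1, 8 were higher, beside 16.1% of all coding genes in that fit, and 8 were also higher in the fit of protein-coding genes alone, beside 24.6%. HSPA5, the main ER chaperone, had 161 and 173 CPM in DE and 149 and 133 CPM in hPSC. Of 20 unfolded protein and integrated stress response genes, 14 rose, beside 18.2% of all coding genes, and none fell, with a median of 1.26. DDIT4, an inhibitor of mTOR that is induced by stress, had 31.6 and 28.7 CPM in DE and 4.72 and 3.86 CPM in hPSC, and ATF3, a stress-induced bZIP factor, had 12.9 and 12.2 CPM in DE and 2.32 and 2.29 CPM in hPSC. DDIT3 (CHOP) had 2.84 and 3.36 CPM in DE and 0.495 and 0.831 CPM in hPSC. Among 17 tested immediate early genes, 8 rose and 2 fell, beside 18.2% and 18.3% of all coding genes. BTG2 rose, with 8.65 and 9.47 CPM in DE and 0.457 and 0.532 CPM in hPSC. The 2 that fell were IER2 and MYC, the growth regulator. MYC had 3.66 and 4.18 CPM in DE and 37.4 and 43.8 CPM in hPSC (-3.37 ± 0.18, adjusted p = 0.000848). Of 16 p53 targets and cell death genes, 4 rose and 5 fell, beside 18.2% and 18.3% of all coding genes, and 2 were higher without DE library 2. BIRC5, an inhibitor of apoptosis that also acts in mitosis, had 18.6 and 18.1 CPM in DE and 44.7 and 47.5 CPM in hPSC.

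DNA methylation and chromatin genes were lower for 9 of 19 members and higher for 3, beside 18.3% and 18.2% of all coding genes. DNMT3B, the de novo methyltransferase of stem cells, had 70.9 and 75.6 CPM in DE and 947 and 934 CPM in hPSC, while its relative DNMT3A had 51.7 and 52.9 CPM in DE and 97.1 and 105 CPM in hPSC. DNMT3L, their catalytically inactive partner, had 4.29 and 3.92 CPM in DE and 0 counts in both hPSC libraries, so it was at least 75.7-fold higher in DE at the same floor. TET2, which oxidises methylcytosine, had 4.67 and 3.83 CPM in DE and 0.609 and 0.466 CPM in hPSC. In polyamine synthesis, 4 of 12 genes rose and 3 fell, beside 18.2% and 18.3% of all coding genes. Of the antizymes, which are read through a ribosomal frameshift, OAZ1 had 59.1 and 65.5 CPM in DE and 41.6 and 33.4 CPM in hPSC, a rise lost without DE library 2, and OAZ2 had 20.9 and 15.7 CPM in DE and 51.8 and 53.5 CPM in hPSC.

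The changes in footprints lay close to those in RNA. In RNA, 12421 of 15471 tested coding genes (80.3%) were called, 6531 higher (42.2%) and 5890 lower (38.1%), and the RNA libraries held 79772770 to 92533815 counts. Of 2304 genes called higher in footprints and tested in RNA, 2250 (97.7%) were higher in RNA and 16 lower, and of 2315 called lower, 2223 (96%) were lower in RNA and 14 higher. In the other direction, 40.5% of 5551 genes higher in RNA and 46.3% of 4806 lower were called the same way in footprints. Across 12657 genes, which are not independent replicates, the changes correlated with Pearson's r of 0.89 and Spearman's rho of 0.87. In FLAG-selected footprints, 3155 of 12555 genes (25.1%) were called. Of the genes called in total footprints and tested there, 1338 of 2269 higher genes (59%) and 1290 of 2271 lower genes (56.8%) had the same call, and none the opposite call. The test of the difference between total and FLAG-selected changes called 0 of 13229 coding genes in edgeR (0%), 348 at an unadjusted p under 0.05, and 5 higher and 1 lower by the Wald test of DESeq2.

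**Figure D5:**
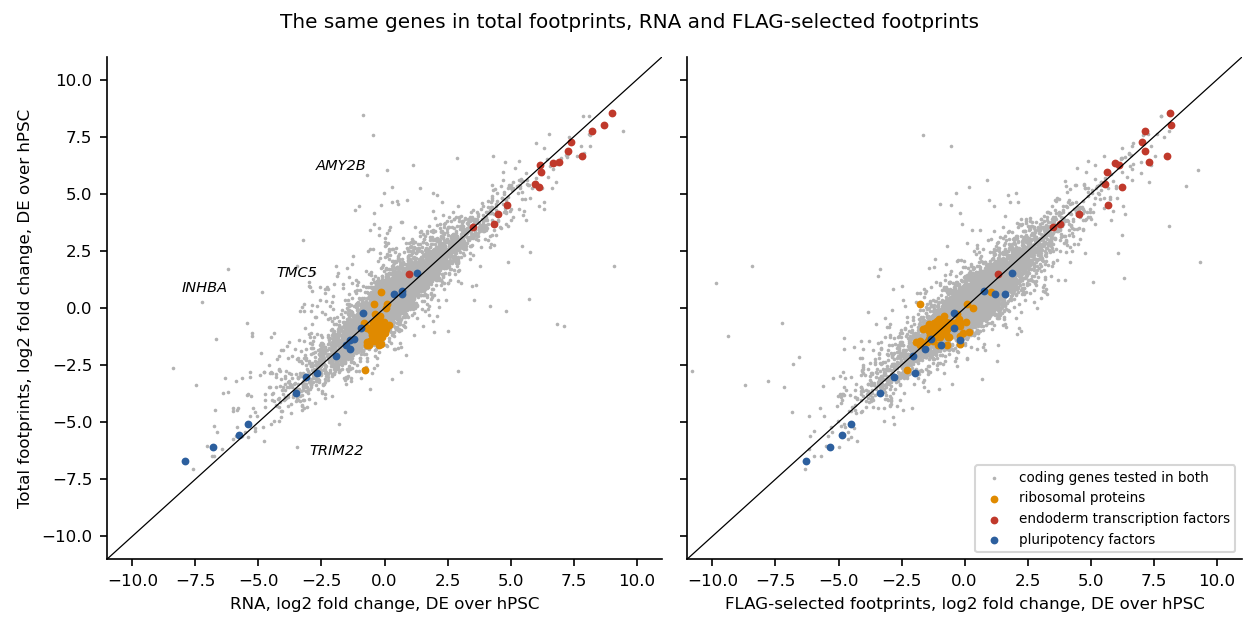
Log2 fold change (DE over hPSC) in total footprints (y axis) against that in RNA (left) and in FLAG-selected footprints (right), 1 point a gene with more than 3 counts in each group of total footprints, with the line of equal change. Endoderm factors lie at the upper right and pluripotency factors at the lower left in both panels, and most ribosomal proteins lie below the line against RNA but around it against FLAG-selected footprints.

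For the ribosomal proteins the median RNA change was -0.27 in each subunit, against -0.97 and -0.85 in total footprints and -0.99 and -0.94 in FLAG-selected footprints. The fitted difference between the footprint and the RNA change had a median of -0.53 for the small and -0.46 for the large subunit, beside 0.10 over all coding genes, but it passed the threshold for none of the 32 and none of the 45 genes. Over all coding genes this test called 33 higher (0.216%) and 8 lower (0.0523%) of 15287 genes. No gene passed in either direction when hPSC footprint library 2 or any 1 RNA library was left out. There were 8 higher and 2 lower without hPSC footprint library 1, 118 and 279 without DE footprint library 1, and 768 and 2424 without DE footprint library 2. RPL39L, a paralog of RPL39, had 431 and 383 CPM of footprints in DE and 204 and 368 CPM in hPSC without a call (adjusted p = 0.253), while its RNA fell by 2.05 on the log2 scale. The difference of 2.74 had an adjusted p of 0.0496, and of 0.0803 without DE library 1.

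Examples of that small group, chosen after their values were seen, show footprints parting from RNA. TRIM22, an interferon-induced antiviral protein, had 0.252 and 0.263 CPM of footprints in DE and 16.6 and 18.9 CPM in hPSC, and fell by 6.07 in footprints and 3.46 in RNA, a difference of -2.45 ± 0.26 (adjusted p = 0.0259). NRP1, a receptor for semaphorins and VEGF, had 4.1 and 3.51 CPM in DE and 1.52 and 2.29 CPM in hPSC without a call in footprints, while its RNA rose by 3.63 (difference -2.47 ± 0.32). BCL2L11, the pro-apoptotic protein BIM, rose by 0.68 ± 0.20 in footprints (adjusted p = 0.0489) while its RNA fell by 1.14, with 13.9 and 17.5 CPM of footprints in DE and 10.6 and 9.08 CPM in hPSC. Its footprint call was lost without DE library 2 (adjusted p = 0.106), without either hPSC library and in the fit of 8 footprint libraries. TERF1, a telomere-binding protein, fell by 2.33 in footprints and 3.40 in RNA, and STK4, a kinase of the Hippo pathway, rose by 1.12 ± 0.19 in footprints while its RNA fell by 0.42.

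A few of these genes had footprint counts that their RNA did not match. INHBA, which encodes the subunit of activin A, had 37.6 and 19.6 CPM of footprints in DE and 22.8 and 24.8 CPM in hPSC, and the groups overlapped. Its RNA stood at 0.0111 and 0 CPM in DE and 0.802 and 1.3 CPM in hPSC. AMY2B, an amylase, had 37.5 and 21.5 CPM of footprints in DE and 0.571 and 0.333 CPM in hPSC, a rise of 6.03 ± 0.45 (adjusted p = 0.00224), while its RNA was 0.3 and 0.358 CPM in DE and 0.267 and 0.344 CPM in hPSC. TMC5 had 10784 and 17098 CPM of footprints in DE and 6223 and 8641 CPM in hPSC at RNA levels of 0.433 and 0.503 CPM in DE and 3.44 and 3.79 CPM in hPSC. Which reads were counted to these genes was not tested.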

How the data were processed

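Total ribosome footprints of DE and hPSC were measured with 2 libraries each, after RNase I digestion without cycloheximide and riboPOOLs depletion, per the labels' protocols. The authors deposited estimated counts per gene for 18 libraries, and 16.8% to 31.3% of values per library are not whole. Salmon, DESeq2, UMI-tools, cutadapt, Bowtie and GRCh38 are named in the submitters' processing notes, and the annotation release is not given in the sources used here. Strand use in counting is likewise not given, so overlapping genes cannot be told apart. A table of gene names held 57030 (98.7%) of the identifiers, and protein-coding genes were taken from RefSeq, 239 through a synonym.

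The estimated counts were rounded. The quasi-likelihood F test of edgeR 4.0.16 under R 4.3.3, with filterByExpr, TMM and robust estimation, was fitted on all genes, with p-values adjusted by Benjamini-Hochberg over all genes tested. Separate fits covered RNA and FLAG-selected footprints, and the differences between assays are interactions over 8 libraries. Log2 fold changes are DE over hPSC, given with the standard error of the fit. Levels are TMM CPM.

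The text names genes among the 10 largest rises and 10 largest falls (mean log2 CPM of at least 3, no overlap), the 8 largest gains and 8 largest losses in CPM among genes past the threshold, up to 4 called members in each direction and 2 without a call per list, and a fixed set. DNMT3B, ERICH3, CTC1, further endoderm factors (HNF4A, HHEX, FOXA1 to FOXA3, MIXL1), markers and the examples of a difference from RNA stand outside this rule and were chosen after their values were seen. Values of some list members are not reported here. The genes and the 32 lists were chosen with earlier results of these data known. Alternatives were DESeq2's size factors, DESeq2 1.42.0, no filter or 1 CPM and 10 counts in 2 libraries, and protein-coding genes alone. Another removed the 2 features with most counts in DE library 1, the unnamed feature and LINC01783, and kept WDR74. The others were a replicate block, a glmTreat threshold of 1 on the log2 scale, a fit of 8 footprint libraries, and each library left out. Counting error covers molecules and not cultures. Figures and tables were made in Python 3.11.15 (matplotlib 3.10.9, numpy 2.4.6, pandas 2.3.3).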

Additional observations from a re-analysis of the deposited data

How the results depend on the processing

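For footprints, 2307 coding genes were higher and 2320 lower. Against a 2-fold change the test called 778 higher and 456 lower, and the block by replicate number 1604 and 1482. With each library left out the counts ran from 44 to 2263 higher and from 17 to 2388 lower, with 113 and 46 without hPSC library 1 and 44 and 17 without hPSC library 2. The replicate numbers were not taken as pairs: the deviations of equally numbered DE and hPSC libraries correlated at -0.18 in total footprints, 0.07 in RNA and -0.43 in FLAG-selected footprints. With the numbers of DE exchanged, a block chosen after seeing the data, 2177 genes were higher and 2246 lower in total footprints and 2474 lower in FLAG-selected footprints. Of 183 named genes past the threshold, 157 kept the call under the block, 183 with DESeq2, its size factors or protein-coding genes alone, and 106 against a 2-fold change. Scaling moved the median change of coding genes by at most 0.02. Each scaling is set on the bulk of genes, so this small move could not show a shift common to most genes.

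In RNA, the test against a 2-fold change called 2211 genes higher and 1780 lower. In FLAG-selected footprints it called 605 higher and 341 lower, and leaving out a library gave 838 to 1827 higher and 605 to 2013 lower. The difference between footprint and RNA changes (33 higher, 8 lower) was the least stable count: 16 higher with DESeq2's size factors, 93 and 18 with no filter, 553 and 519 with DESeq2, 141 and 31 over protein-coding genes alone, 1 and 1 under the replicate block and 0 and 1 against a 2-fold change. Leaving out a library gave 0 to 768 higher and 0 to 2424 lower. The difference from FLAG-selected footprints (0 and 0) gave 29 and 19 with no filter, 5 and 1 with DESeq2, and 0 to 3 higher and 0 to 1 lower with a library left out. None of the 183 named genes past the threshold in total footprints turned its direction under these settings. In the difference between footprint and RNA changes more genes were lower than higher without DE library 1 (118 and 279) and without DE library 2 (768 and 2424), and ERICH3, which was not called, went to -2.31 without DE library 1, against 5.88 with it. The cause of these moves was not tested, and neither was the part of the fewer degrees of freedom that fewer libraries leave. Genes with 3 or fewer counts in a group have no usable fold change at this depth.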
